A study of Rattus norvegicus with 46 samples.

Results

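The genes described here were 8, chosen by name: the TGF-beta ligands Tgfb1, Tgfb2 and Tgfb3, the receptors Tgfbr1, Tgfbr2 and Tgfbr3, and the TGF-beta-induced genes Tsc22d1 and Fstl1, and every probe set annotated to exactly 1 of these symbols was taken. This gave 11 of the 8740 probe sets of the array, for 7 of the 8 genes, since no probe set carried the single symbol Tgfbr2. Tgfb3, Tgfbr1, Tgfbr3 and Fstl1 had 2 probe sets each, and a gene is given first by its brighter one, with the highest mean log2 value over all arrays. The 46 arrays held left ventricular RNA of male Wistar rats in 20 groups. Pressure overload was imposed by a clip around the ascending aorta for 6, 12, 16 or 30 weeks (2, 2, 2 and 4 arrays), and infarction by ligation of the left anterior descending coronary artery, with the scar cut away, for 3 or 9 weeks (4 arrays each). Volume overload came from an aorto-caval shunt of 3 or 8 weeks (2 arrays each), and each of these 8 groups had 2 sham arrays of its own. Angiotensin II or the thyroxin analogue 3,5-diiodothyropropionic acid (Ditpa) was given subcutaneously for 2 weeks (2 arrays each), and both were compared with the same 2 vehicle arrays, whose label is saline. The labels describe Ditpa as an infusion and the study's methods as daily injections. Those methods also give different controls, pumps with vehicle for angiotensin II, which was dissolved in saline with acetic acid, and saline for Ditpa. The labels hold only 1 vehicle group. The last 2 arrays held neonatal ventricle, taken a few days after birth. The age of the adult rats was not given in the sources used here. Each array held pooled RNA of several animals, and the p-values below rest on how far such pools differed, with no measure of single animals.

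TGF-beta ligands are secreted in a latent form and, once released, bind the type II receptor Tgfbr2, which recruits and phosphorylates the type I receptor Tgfbr1. Tgfbr1 phosphorylates Smad2 and Smad3, which enter the nucleus with Smad4, while Tgfbr3 (betaglycan) is a co-receptor that presents ligand. In the heart the pathway is best known for driving fibroblasts to make matrix. Tsc22d1, a leucine zipper protein, and Fstl1, a secreted glycoprotein of the follistatin family, were both first cloned as transcripts that TGF-beta induces.

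The windows before the annotated starts of Tsc22d1 and Fstl1 are shown because these were the members whose level rose. They are the 250 bases upstream of each RefSeq start in the GRCr8 assembly, printed 5′ to 3′ on the gene's strand, with the short motifs below in capitals. Tsc22d1 has 2 annotated starts on chromosome 15, at chr15:58159528-58159777 and chr15:58256751-58257000, both on the plus strand, and which of them gives the transcript on the array was not tested. The Fstl1 window lies on the minus strand at chr11:76454054-76454303.
Tsc22d1, upstream start: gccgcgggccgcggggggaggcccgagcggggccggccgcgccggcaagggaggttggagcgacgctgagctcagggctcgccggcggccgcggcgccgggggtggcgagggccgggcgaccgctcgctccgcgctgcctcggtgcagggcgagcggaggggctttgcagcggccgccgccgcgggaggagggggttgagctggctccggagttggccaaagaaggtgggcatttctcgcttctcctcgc
Tsc22d1, downstream start: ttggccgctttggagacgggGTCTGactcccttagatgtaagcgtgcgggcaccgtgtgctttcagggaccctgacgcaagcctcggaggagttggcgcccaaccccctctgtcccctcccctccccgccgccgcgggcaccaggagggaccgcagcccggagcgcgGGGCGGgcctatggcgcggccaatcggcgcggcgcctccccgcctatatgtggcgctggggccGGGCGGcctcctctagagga
Fstl1: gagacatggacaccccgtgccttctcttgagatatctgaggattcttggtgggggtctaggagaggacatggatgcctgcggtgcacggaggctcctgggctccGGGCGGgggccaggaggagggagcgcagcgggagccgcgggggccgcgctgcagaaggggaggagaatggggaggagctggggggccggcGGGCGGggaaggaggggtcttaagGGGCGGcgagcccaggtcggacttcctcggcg
The motifs searched on both strands were 5: the SMAD-binding core CAGAC, the palindrome GTCTAGAC, the GC box GGGCGG, the AP-1 element TGANTCA and the TATA box TATAAA. The capitals mark 1 CAGAC match (read as GTCTG) and 2 GC boxes in the downstream Tsc22d1 window and 3 GC boxes in the Fstl1 window, and the upstream Tsc22d1 window held none of the 5. No capital stretch comes from the other 3 motifs. Over all 33469 windows of the same length, 42.9% held CAGAC, 30.5% the GC box, 12.9% TATAAA, 6.34% TGANTCA and 0.173% GTCTAGAC. The windows were rich in G and C, at 78.4% and 72.0% for Tsc22d1 and 70.0% for Fstl1, against a median of 51.2% over all windows. Of the 6 ligand and receptor windows 0 held CAGAC, while Tgfbr1 held 3 GC boxes and Tgfbr2 and Tgfbr3 held 1 each.

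The deposited values are linear intensities in which the median of an array lay between 1002.6 and 1084.4, and no 2 arrays were identical. The typical SD between arrays of a group was 0.173 on the log2 scale. Nppa, the atrial natriuretic peptide gene that marks hypertrophy, was above its own controls in 22 of 22 arrays of operated hearts, in the direction of the labels. The cardiomyocyte genes fixed as markers gave high values throughout, with 10 of 11 measured markers in the upper 5% of probe sets. In whole ventricle a change of a transcript per cell and a change in the number of cells that make it cannot be told apart. The table gives no detection call, so values below are levels and not evidence of presence.

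Tsc22d1 and Fstl1 rose with hypertrophy and none of the measured ligands or receptors passed the test. Averaged over the 10 treated groups, Tsc22d1 was higher by 0.58 ± 0.0708 log2 (SE), a fold of 1.5, in 25 of 26 hypertrophic arrays (limma adjusted p = 1.46e-06). Fstl1 was higher by 0.55 ± 0.0858, a fold of 1.47, in 24 of 26 arrays (adjusted p = 7.07e-05). These 2 of 11 probe sets stand against 455 of 8740 called on the whole array, which is 5.21%, with 3.64% higher and 1.57% lower. Both genes were among those the study picked on these same arrays, so their direction is not independent evidence. Of all probe sets 1.4% were higher in at least 24 of the 26 arrays. With quantile normalization the 318 higher and 137 lower calls on the whole array became 259 and 217. The second probe set of Fstl1 stood at 0.018 ± 0.0369 (adjusted p = 0.877). The 8 ligand and receptor probe sets had average effects between -0.070 and 0.084, and 0 of 8 had an unadjusted limma p below 0.05, as had 15.9% of all probe sets. The methods name a rank sum test on log fold changes without giving the second sample. Taken as an exact rank sum test of hypertrophic against control log2 ratios, with Bonferroni correction, it passed 117 of 8740 probe sets (1.34%), among them Tsc22d1 (corrected p = 0.000722, 26 against 18 arrays) and Fstl1 (corrected p = 0.000197), and gave a corrected p of 1 for the other 9. Taken as an exact signed rank test of the 26 hypertrophic ratios against 0, it passed 179 (2.05%), again with Tsc22d1 (corrected p = 0.00651) and Fstl1 (corrected p = 0.0013) and no other member. Each control ratio was taken to a mean that included the array itself, and arrays of a group shared their control mean. The ratios were therefore not independent, and both rank tests treat them as if they were, so their p-values can be too small.

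**Figure D1:**
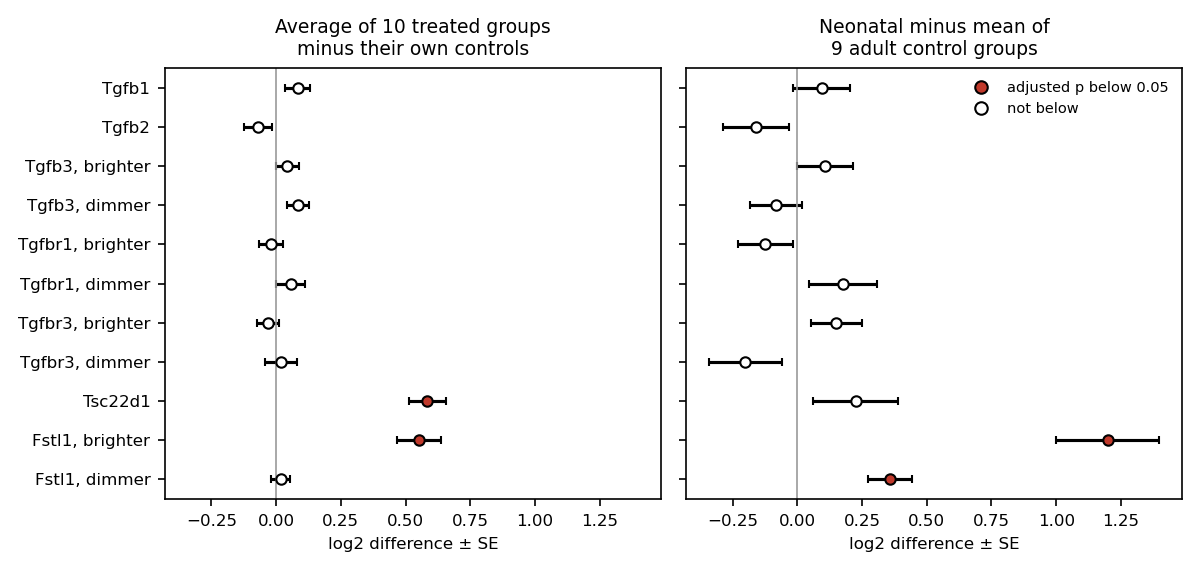
Log2 difference ± SE of the 11 probe sets, as the average of the 10 treated groups minus their own controls (left) and as neonatal minus the 9 adult control groups (right); filled points have a limma adjusted p below 0.05. Tsc22d1 at 0.58 and the brighter Fstl1 probe set at 0.55 stand apart on the left, and both Fstl1 probe sets on the right, at 1.20 and 0.36.

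Tsc22d1 was high on every banded array. At 6 weeks the 2 banded arrays read 16304 and 16862 and their shams 8637 and 7770. At 12 weeks the values were 17183 and 14404 against 7331 and 8878, and at 16 weeks 16703 and 14008 against 8870 and 9463. At 30 weeks the 4 banded arrays read 25519, 23223, 20667 and 17927, and the shams 8862 and 9926. No banded array overlapped its shams at any time, while 20.4%, 10.1%, 26.8% and 11.4% of all probe sets had every treated array above the shams at 6, 12, 16 and 30 weeks. The effect over the 4 times was 0.98 ± 0.107 log2, a fold of 1.97, in 10 of 10 arrays (limma adjusted p = 1.72e-07), in a comparison that called 5.26% of all probe sets (287 higher and 173 lower, or 239 and 288 with quantile normalization). At the single times the effect was 1.02 ± 0.221 at 6 weeks (adjusted p = 0.0163), 0.96 ± 0.221 at 12 weeks (adjusted p = 0.0432), 0.74 ± 0.221 at 16 weeks (adjusted p = 0.137) and 1.21 ± 0.192 at 30 weeks (adjusted p = 0.000322). The share of all probe sets called was 0.652%, 0.355%, 0.709% and 1.12% in turn. The 4 banding effects of Tsc22d1 were not shown to differ (moderated F adjusted p = 0.913, with 0% of probe sets called and 7.13% at an unadjusted p below 0.05).

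After infarction Tsc22d1 was again above its shams in 8 of 8 arrays. The 3-week arrays read 13746, 14908, 17559 and 20643 against shams of 7757 and 10706. The 9-week arrays read 24389, 18874, 15046 and 11133 against 10230 and 10690, and the lowest of them lay just above the shams. All arrays lay above the shams for 8.48% of probe sets at 3 weeks and 13.7% at 9 weeks. The effect was 0.76 ± 0.135 log2, a fold of 1.7 (limma adjusted p = 0.000968, 1.96% of probe sets called, 149 higher and 22 lower, or 118 and 43 with quantile normalization). By time it was 0.86 ± 0.192 at 3 weeks (adjusted p = 0.0489, 0.206% called) and 0.67 ± 0.192 at 9 weeks (adjusted p = 0.0599, 1.92% called), with a difference between the times of -0.19 ± 0.271 (adjusted p = 0.997, 0% called and 5.82% at an unadjusted p below 0.05). The single-time calls were fragile: leaving out 1 array at a time, the call was lost for 3 of 46 arrays at 6 weeks of banding, 27 at 12 weeks and 36 at 3 weeks of infarction, and never at 30 weeks of banding. The 3 arrays for 6 weeks were both banded arrays and sham replicate 4, with adjusted p up to 0.17. The highest adjusted p was 0.204 for 12 weeks of banding and 0.683 for 3 weeks of infarction.

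**Figure D2:**
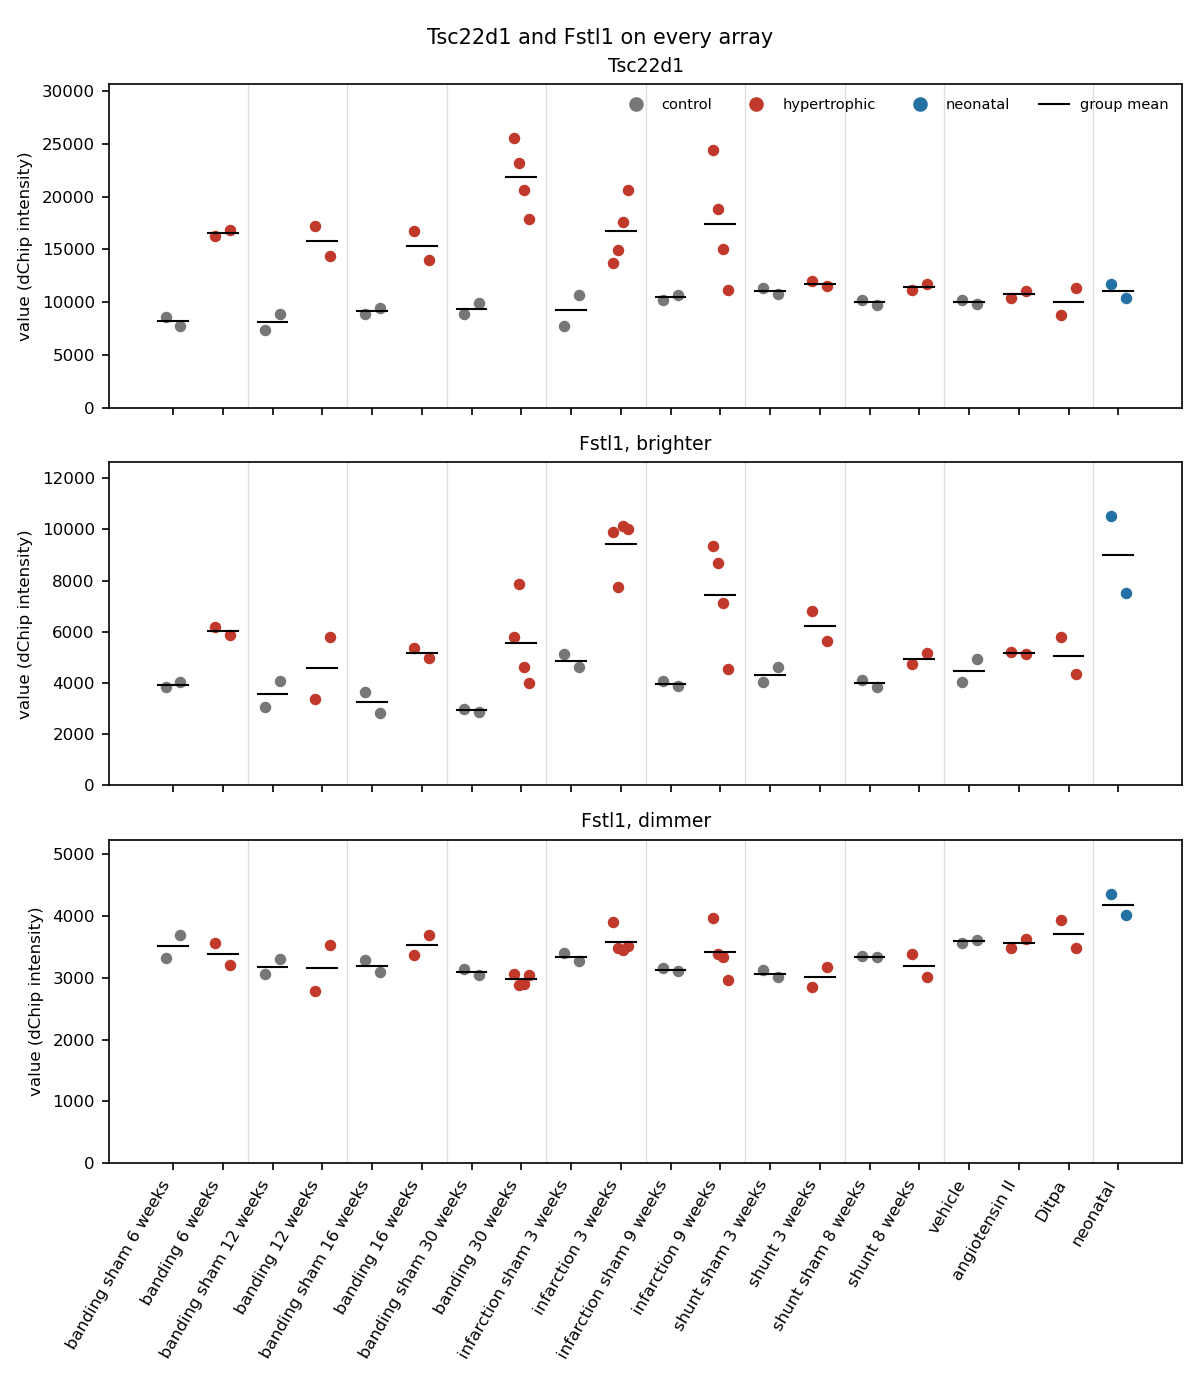
Deposited value (linear dChip intensity, axis from 0) on each of the 46 arrays for Tsc22d1 and both Fstl1 probe sets, grouped by model and time; points are arrays and lines group means. Banded and infarcted arrays of Tsc22d1 sit above all arrays of their shams, while the dimmer Fstl1 probe set is highest in the 2 neonatal arrays, at 4014 and 4359.

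In the shunt and the hormone groups Tsc22d1 stayed near its controls. The shunt arrays read 11967 and 11573 at 3 weeks against 11360 and 10772, and 11151 and 11694 at 8 weeks against 10219 and 9750. The shunt effect was 0.14 ± 0.156 log2, with a 95% interval from -0.18 to 0.46 (limma adjusted p = 0.901, 0.0458% of probe sets called). The 4 higher and 0 lower calls of the shunt rose to 110 and 192 without shunt replicate 1 at 3 weeks, where Tsc22d1 stood at 0.13 (adjusted p = 0.815). Angiotensin II arrays read 10422 and 11086 and Ditpa arrays 8800 and 11303, with the vehicle at 10217 and 9788. The effects were 0.10 ± 0.221 (95% interval -0.35 to 0.56) for angiotensin II and -0.0039 ± 0.221 (-0.45 to 0.45) for Ditpa. By limma neither hormone treatment called a probe set on the whole array (0%), while 3.49% and 3.2% had an unadjusted p below 0.05. The 2 hormone treatments differed by 0.11 ± 0.221 for Tsc22d1 (limma adjusted p = 1, 0.0114% of probe sets called). A test of the difference between the 5 models gave F = 7.73 for Tsc22d1 (moderated F adjusted p = 0.0584), just above the threshold, where 24 of 8740 probe sets passed (0.275%). Leaving out 1 array at a time brought this adjusted p below 0.05 for 9 of 46 arrays, and it ran from 0.00731 without replicate 4 of infarction at 9 weeks up to 0.154. The other 8 were replicate 1 of infarction at 9 weeks, infarction sham replicate 2 at 3 weeks, banding sham replicate 4 at 6 weeks and at 12 weeks, banded replicate 2 at 12 weeks and 4 at 30 weeks, shunt replicate 1 at 3 weeks and Ditpa replicate 2. An ANOVA between the models on the log2 ratios, a test named in the study's methods, was rerun here. It gave a Bonferroni corrected p of 0.12 for Tsc22d1 (0.343% of probe sets passed).

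Fstl1 rose after banding and after infarction on its brighter probe set. The banded arrays read 6186 and 5881 at 6 weeks (shams 3831 and 4038), 3374 and 5799 at 12 weeks (shams 3077 and 4082) and 5371 and 4973 at 16 weeks (shams 3650 and 2832). At 30 weeks they read 5802, 7851, 4640 and 3989 against 2996 and 2871. The 12-week group was the only banding group to overlap its shams, through replicate 1 at 3374. At 6, 16 and 30 weeks 20.4%, 26.8% and 11.4% of all probe sets had every banded array above the shams. Over the 4 times the effect was 0.62 ± 0.13 log2, a fold of 1.54, in 9 of 10 arrays (limma adjusted p = 0.00239). No single banding time passed, with effects of 0.62 at 6 weeks, 0.32 at 12, 0.68 at 16 and 0.88 at 30 weeks (adjusted p = 0.498, 0.847, 0.283 and 0.0573).

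The 3-week infarction arrays of Fstl1 read 9916, 7753, 10117 and 10002 against shams of 5116 and 4609, and the 9-week arrays 9349, 8692, 7118 and 4559 against 4066 and 3893. All 8 lay above their shams, by 0.90 ± 0.164 log2, a fold of 1.87 (limma adjusted p = 0.0014). Such separation was seen for 8.48% of all probe sets at 3 weeks and 13.7% at 9 weeks. The call at 9 weeks alone (0.85 ± 0.232, adjusted p = 0.049) was lost when any of 34 of the 46 arrays was left out, with an adjusted p of up to 0.324, and at 3 weeks the effect was 0.95 ± 0.232 (adjusted p = 0.0925). Replicate 4 of the 9-week group was the lowest infarcted array for Fstl1 at 4559, as for Tsc22d1 at 11133, and also for the mean log2 level of 11 fibroblast markers, at 11.40 against 11.52 to 12.23 in the other 3. It was lowest for the mean of 6 macrophage markers as well, at 10.64 against 10.80 to 11.48 in the other 3. For the other marker lists another 9-week array was lowest. The part of cell makeup in these values was not tested.

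Shunt arrays of Fstl1 read 6822 and 5658 at 3 weeks against 4034 and 4626, and 4729 and 5187 at 8 weeks against 4133 and 3857. The effect of 0.42 ± 0.19 log2 did not pass (limma adjusted p = 0.553, 95% interval 0.031 to 0.80, 0.0458% of probe sets called). Angiotensin II gave 5223 and 5124 and Ditpa 5800 and 4337 against vehicle values of 4022 and 4945, with effects of 0.21 ± 0.268 and 0.17 ± 0.268. The Fstl1 effects were not shown to differ between the 5 models (moderated F adjusted p = 1), nor between banding times (adjusted p = 0.913). The dimmer Fstl1 probe set lay between 2783 and 3966 on the hypertrophic arrays and between 3006 and 3698 on the controls, and its effects by model ran from -0.045 to 0.11, none of them called. Over all 46 arrays the 2 probe sets of Fstl1 correlated at r = 0.5, a description of 2 readouts of the same libraries. The arrays alone do not settle which of the probe sets reflects the transcript better.

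**Figure D3:**
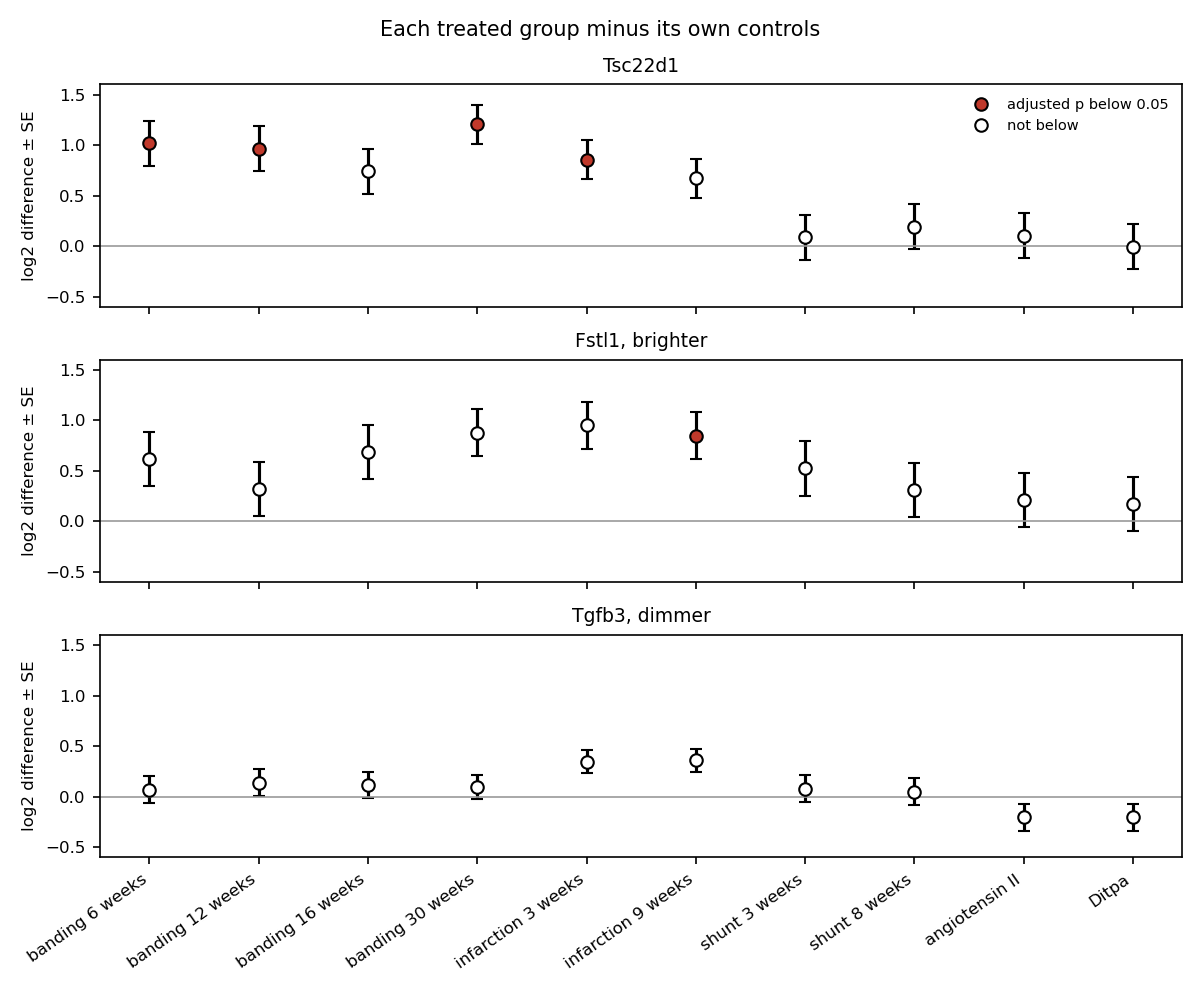
Log2 difference ± SE of each treated group from its own sham or vehicle group for Tsc22d1, the brighter Fstl1 probe set and the dimmer Tgfb3 probe set; filled points have a limma adjusted p below 0.05. Tsc22d1 runs from 0.74 to 1.21 over the 4 banding times and lies at 0.19 or below in the shunt and hormone groups.

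Among the ligands, only a probe set of Tgfb3 passed in a single model. Tgfb3 is the isoform best known for its role in palate fusion. Its dimmer probe set read 2338, 2753, 2748 and 3056 at 3 weeks of infarction against shams of 2011 and 2259, and 2369, 2545, 2487 and 2199 at 9 weeks against 1874 and 1862. All 8 infarcted arrays lay above their shams, by 0.35 ± 0.0813 log2, a fold of 1.28 (limma adjusted p = 0.0128). Of all probe sets 8.48% at 3 weeks and 13.7% at 9 weeks had every infarcted array above the shams. The brighter probe set gave 0.15 ± 0.0883 in the same comparison, with 6 of 8 arrays higher (adjusted p = 0.601). The call was lost without sham replicate 1 at 3 weeks (adjusted p = 0.103) and without sham replicates 5 and 6 at 9 weeks (0.0695 and 0.0572). In the hormone groups the dimmer probe set read 1878 and 1912 with angiotensin II and 2051 and 1755 with Ditpa. The vehicle arrays, shared by both, read 2285 and 2085. The effect was -0.20 ± 0.133 in both and did not pass (adjusted p = 1 in both). The difference between the 5 models did not pass for either probe set (moderated F adjusted p = 0.413 for the dimmer and 1 for the brighter). The unadjusted moderated F p of the dimmer was 0.00837, and 6.28% of all probe sets had one below 0.05. The ANOVA on the log2 ratios, rerun here, gave the dimmer a Bonferroni corrected p of 0.0954 (0.343% of probe sets passed). The brighter did not pass it either. The 2 probe sets of Tgfb3 correlated at r = 0.327 over the 46 arrays.

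Tgfb1, the isoform most studied in cardiac fibrosis, read 841 to 1189 on the 18 control arrays (median 988) and 844 to 1519 on the 26 hypertrophic arrays (median 1045). Its average effect was 0.083 ± 0.0471 log2, with a 95% interval from -0.013 to 0.18 (limma adjusted p = 0.417). After infarction it was 0.21 ± 0.0902 with 6 of 8 arrays higher (adjusted p = 0.354), and at 6 weeks of banding 0.37 ± 0.147, where the arrays read 1300 and 1519 against 998 and 1189 (adjusted p = 0.432). Neither passed, although both had an unadjusted p below 0.05. Tgfb2 read 1319 to 2104 on the controls (median 1668) and 1082 to 1941 on the hypertrophic arrays (median 1587), with an average effect of -0.070 ± 0.0545 (adjusted p = 0.603). At 30 weeks of banding the Tgfb2 effect was -0.26 ± 0.147 and did not pass (adjusted p = 0.566).

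The measured receptors gave 0 calls by limma in any of the 10 treated groups or 5 models. Of all probe sets 0% to 1.92% were called in a group and 0% to 5.26% in a model. For the average effect 0 of the 4 receptor probe sets had an unadjusted p below 0.05, against 15.9% of all probe sets. Tgfbr1, the type I receptor kinase, read 1160 to 1568 on the controls and 1087 to 1631 on the hypertrophic arrays with its brighter probe set, an average effect of -0.020 ± 0.0454 log2 (95% interval -0.11 to 0.072, limma adjusted p = 0.886). Its dimmer probe set gave 0.055 ± 0.0563 (adjusted p = 0.713). Their values over the 46 arrays correlated at -0.316, so the 2 readouts of Tgfbr1 did not move together. Tgfbr3, the co-receptor betaglycan, read 3229 to 3983 on the controls and 2732 to 4036 on the hypertrophic arrays, an average effect of -0.031 ± 0.0419 (adjusted p = 0.802). Its dimmer probe set gave 0.018 ± 0.061 (adjusted p = 0.933), and the pair correlated at 0.0547. For the brighter probe sets of both receptors the 95% intervals of the banding and infarction effects lay between -0.27 and 0.092. For the dimmer probe sets of both they were wider, reaching from -0.235 (Tgfbr3) to 0.366 (Tgfbr1), both after infarction.

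**Figure D4:**
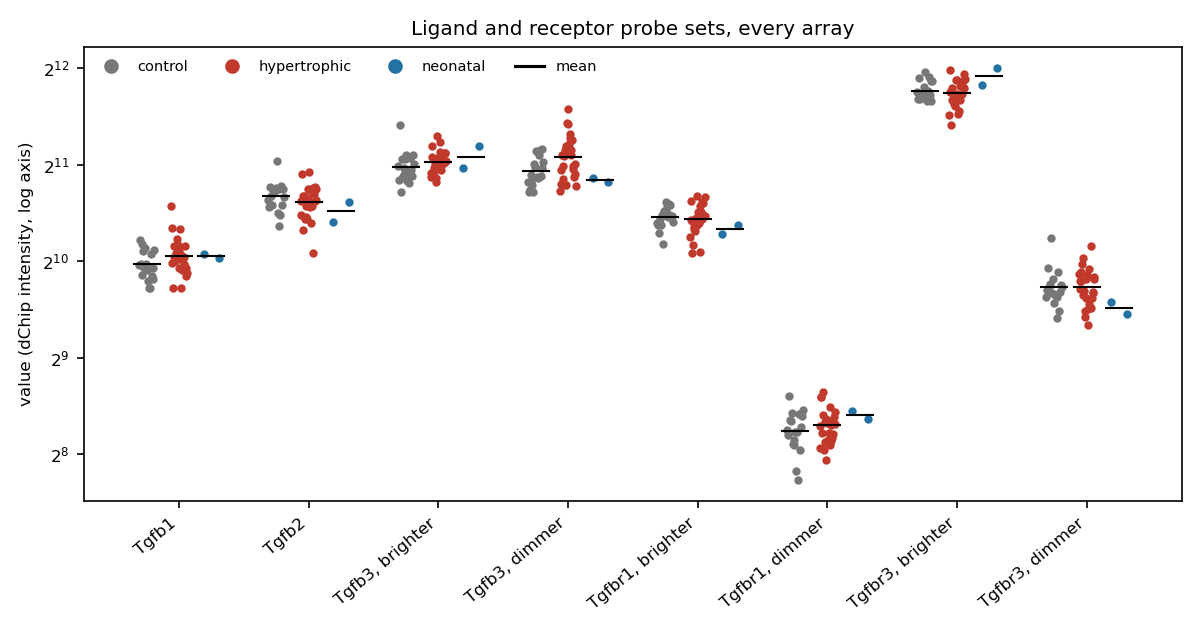
Deposited value (dChip intensity, log axis) of the 8 ligand and receptor probe sets on 18 control, 26 hypertrophic and 2 neonatal arrays; lines are means, and brighter and dimmer name the 2 probe sets of a gene. Control and hypertrophic ranges overlap for each probe set, at 841 to 1189 and 844 to 1519 for Tgfb1, while the dimmer Tgfb3 probe set reaches 3056 in hypertrophic arrays and 2285 in controls.

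The level of the members did not differ detectably between the 9 adult control groups, which span the sham operations of each model and time and the vehicle. The moderated F adjusted p ran from 0.288 for the dimmer Tgfb3 probe set to 0.966 for the brighter one, against 6.58% of probe sets called. Of the 11, 0 had an unadjusted p below 0.05, against 20.8% of probe sets. This F ignores the order of the times. The brighter Fstl1 probe set averaged 11.94, 11.79, 11.65 and 11.52 log2 in banding shams at 6, 12, 16 and 30 weeks. A trend with time was not tested.

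In the neonatal ventricle Fstl1 was higher than in the adult controls on both probe sets. The neonatal arrays read 10518 and 7510 on the brighter probe set against 2832 to 5116 on the 18 adult controls, and 4359 and 4014 on the dimmer one against 3006 to 3698. The differences were 1.20 ± 0.2 log2, a fold of 2.3 (limma adjusted p = 2.07e-05), and 0.36 ± 0.0859, a fold of 1.28 (adjusted p = 0.00161). This comparison called 32.6% of all probe sets, 15.5% higher and 17% lower, and 12.4% had both neonatal arrays above all controls. Without neonatal replicate 1 the dimmer probe set no longer passed (0.30, adjusted p = 0.085). Tsc22d1 read 11748 and 10371, within or just above the control range of 7331 to 11360, a difference of 0.23 ± 0.165 (adjusted p = 0.314). The 8 ligand and receptor probe sets differed by -0.20 to 0.18, with 0 of 8 called and 0 of 8 at an unadjusted limma p below 0.05, against 42.1% of all probe sets.

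Outside the members, 38 of 60 listed genes of the wider TGF-beta superfamily pathway were measured, and 2 rose on average, 0 fell and 36 did not pass. The median effect was -0.0014 log2, and over all 4736 genes 5.32% passed with a median of 0.0059. Pmepa1, a Smad-binding membrane protein that dampens TGF-beta signalling, rose by 0.55 ± 0.0799 in 25 of 26 arrays (limma adjusted p = 2.37e-05). By model Pmepa1 was higher by 0.79 ± 0.121 after banding and 0.82 ± 0.153 after infarction (adjusted p = 4.31e-05 and 0.00176). Bmpr1a, a type I receptor for bone morphogenetic proteins, rose by 0.31 ± 0.0491 in 23 of 26 arrays (adjusted p = 7.39e-05). Bmpr1a was at 0.43 ± 0.0742 after banding and 0.61 ± 0.0938 after infarction (adjusted p = 0.000274 and 0.000156). Inhbb, an activin subunit, fell by 0.19 on the log2 scale after banding (SE 0.0564, adjusted p = 0.047). The Smads, picked here for their role after their values were seen, did not pass on average: Smad2 at -0.027 ± 0.0428, Smad3 at 0.033 ± 0.0349, Smad4 at 0.17 ± 0.0645 (adjusted p = 0.138) and the inhibitory Smad7 at -0.033 ± 0.0453. With the 5 models weighted equally, a setting that called 1.02% of probe sets, Pmepa1 still passed and Bmpr1a did not. No paralog of Tsc22d1 or Fstl1 was measured (0 of 6).

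Of 32 genes listed as known targets of TGF-beta 26 were measured, and 9 rose, 0 fell and 17 did not pass, with a median of 0.14 log2. That is 34.6% of the list, and over all 4736 genes 5.32% passed, 167 higher and 85 lower. The list was drawn up with results of these arrays known. The largest effects were those of the matricellular protein Postn, at 1.42 ± 0.178 in 25 of 26 arrays (limma adjusted p = 2.42e-06), and of osteopontin (Spp1), at 1.14 ± 0.209 in 26 of 26 (adjusted p = 0.000555). Both probe sets were dim, with mean log2 values of 8.17 and 8.19, at the 9.95 and 10.2 percentiles of all probe sets. Fibronectin (Fn1) rose by 0.55 ± 0.102 and the fibrillar collagen gene Col3a1 by 0.50 ± 0.0769. Bgn, a small proteoglycan, was at 0.49 ± 0.0654, Col1a1 at 0.39 ± 0.0926, Col1a2 at 0.38 ± 0.0797, the protease inhibitor Timp1 at 0.35 ± 0.0769 and Col5a2 at 0.26 ± 0.0707. Of the targets that encode regulators, 4 picked after their values were seen did not pass: the early response gene Klf10 stood at 0.016 ± 0.0471, Junb at 0.17 ± 0.0684, Id1 at -0.0079 ± 0.076 and Cdkn1a at 0.026 ± 0.045. With the 5 models weighted equally 3 of the 9 still passed, namely Bgn, Col3a1 and Postn, and the rank sum test passed 7. Col5a2 was lost without either vehicle array (adjusted p up to 0.063).

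**Figure D5:**
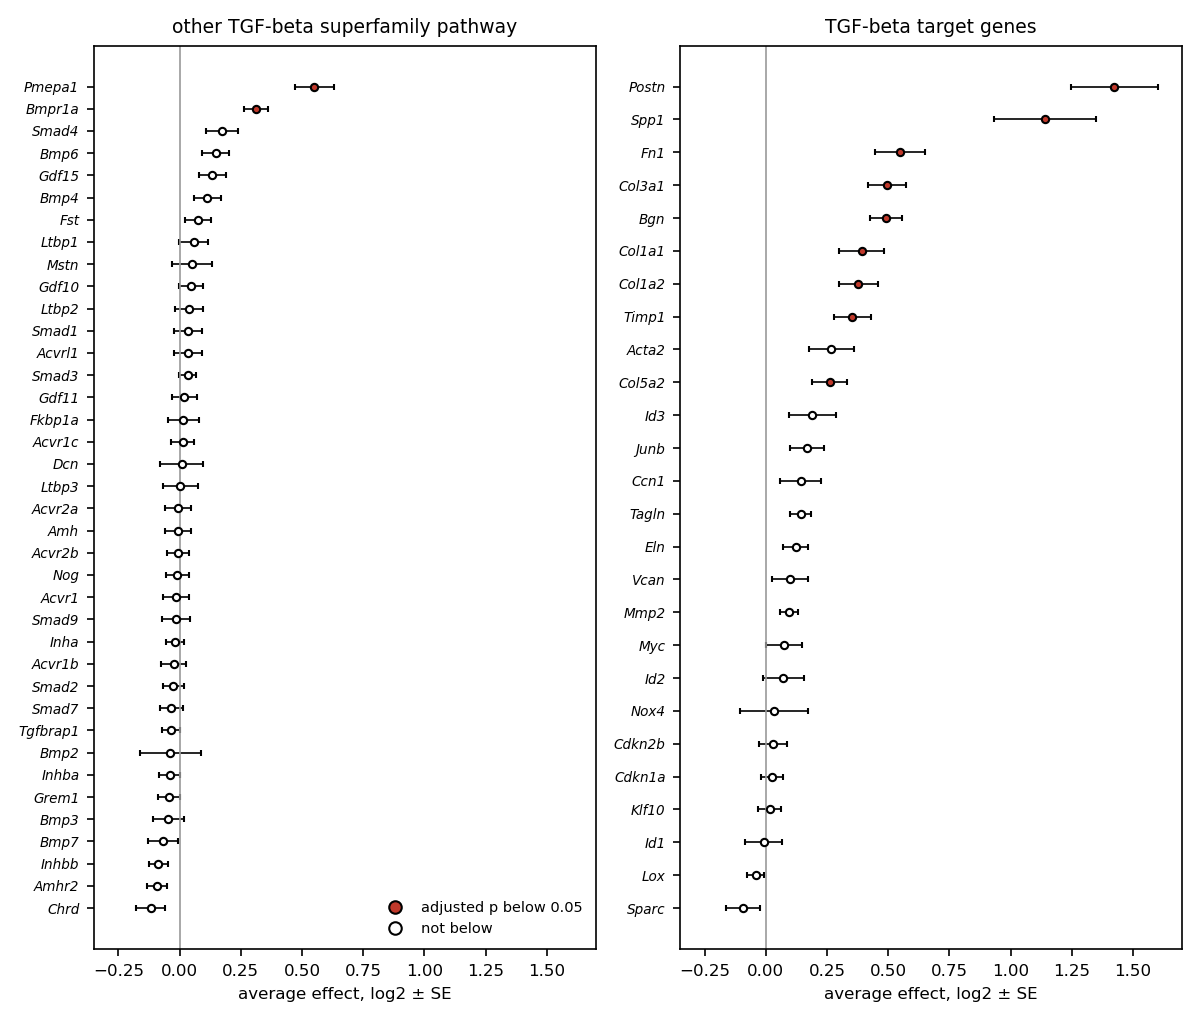
Average effect (log2 ± SE over the 10 treated groups) of the 38 measured genes of the wider pathway (left) and the 26 measured TGF-beta target genes (right), sorted by effect; filled points have a limma adjusted p below 0.05. The pathway genes Pmepa1 and Bmpr1a and 9 targets, led by Postn at 1.42, are filled.

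Of 11 measured fibroblast markers 6 were called higher after banding and 6 after infarction, against 5.72% and 2.07% of all genes called. Of 12 listed, 11 were measured, and 6 were higher on average (Col1a1, Col1a2, Col3a1, Postn, Vim and Lum), with a median of 0.37 log2. The mean log2 level of the 11 lay between 11.04 and 11.62 on banded arrays and 10.80 to 11.14 on their shams, and between 11.40 and 12.23 after infarction with shams at 11.09 to 11.42. On shunt arrays it was 11.40 to 11.68 with shams at 11.28 to 11.36. Hormone arrays lay at 11.35 to 11.60 with vehicle at 11.49 and 11.50, and neonatal arrays at 11.90 and 12.37. In the neonatal ventricle 6 of the 11 markers were called higher and 1 (Dcn) lower, against 32.2% of all genes called. Dcn, Pdgfra, Thy1 and Ddr2 were among the 5 that did not pass on average. Of the 11, 4 (Col1a1, Col1a2, Col3a1 and Postn) are also on the target list. Of 6 measured macrophage markers 2 were higher, of 5 endothelial and 4 smooth muscle markers none passed, and of 3 atrial myocyte markers 1 was higher. Of 11 cardiomyocyte markers 0 passed on average, and 10 were lower in the neonatal ventricle. Their mean log2 level was 13.83 to 13.92 on the 4 hormone arrays and 14.26 and 14.43 on the vehicle arrays, with a median marker effect of -0.61 for both hormones and 0 of 11 called. The part of cell makeup in the effects of the members was not tested.

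In the neonatal ventricle 3 wider pathway genes were higher and 3 lower than in adult controls, of 38 measured, against 32.2% of all genes called. Bmpr1a was at 0.61 ± 0.114 log2 (limma adjusted p = 0.000102), the type I receptor Acvr1 at 0.47 ± 0.124 (adjusted p = 0.0038) and Smad2 at 0.29 ± 0.0997 (adjusted p = 0.0224). Dcn, a proteoglycan that binds TGF-beta, was at -0.98 ± 0.206 (adjusted p = 0.000394), Amhr2, the receptor of anti-Müllerian hormone, at -0.74 ± 0.0943 (adjusted p = 2.88e-07) and Inhbb at -0.32 ± 0.0869 (adjusted p = 0.00478). Of the 26 target genes 11 were higher and 3 lower, and the 3 lower ones are named after their values were seen. Postn led at 5.02 ± 0.414 (adjusted p = 4.2e-11), followed by Fn1 at 2.19 ± 0.236, Col1a2 at 1.94 ± 0.186 and the contractile gene Acta2 at 1.92 ± 0.214. Eln was at 1.56 ± 0.12 and Col3a1 at 1.56 ± 0.179. The other higher targets were Col1a1, Col5a2, Bgn, Id2 and Mmp2. The matricellular gene Ccn1 was at -0.78 ± 0.194, Sparc at -0.68 ± 0.163 and Id1 at -0.54 ± 0.177. For Sparc the mean over all its probe sets gave 0.55 (adjusted p = 0.00123), so its direction depends on the probe set. The adjusted p rose above 0.05 without neonatal replicate 1 for Inhbb, Bgn, Id2 and Mmp2 (up to 0.607 for Mmp2), without neonatal replicate 2 for Dcn (-0.28, adjusted p = 0.389), Ccn1 and Sparc, and without either for Acvr1, Smad2 and Id1.

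Over the means of the 19 adult groups, the genes most like Tsc22d1 in pattern were sought among 2739 genes above the median signal. They were the cysteine- and glycine-rich protein gene Csrp2 (Pearson r = 0.942), Bgn (0.93) and the lysosomal fucosidase gene Fuca1 (0.92). For Fstl1 they were Pmepa1 (0.921), Fn1 (0.918) and the intermediate filament gene Vim (0.909). Tsc22d1 and Fstl1 themselves correlated at 0.682 (Spearman rho 0.775). The ligands and receptors had lower best values, from 0.662 for Tgfb2 (with Cyp27b1) to 0.828 for Tgfbr1 (with Or6f2). Next in rank came Pnliprp1 and Cyp2e1 for Tgfb2, and Rbl2 and Shh for Tgfbr1. The nearest genes were Pitx3, Begain and Or7a37 for Tgfbr3, Cyp2c13, Cdo1 and Stx5 for Tgfb3, and Cox8a, Aldh7a1 and Mog for Tgfb1. Whether the ligand and receptor values report their transcripts or background signal was not tested. These correlations describe group means that share libraries and normalization, and carry no test.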

How the data were processed

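Left ventricular RNA pools were hybridised to 46 Affymetrix RGU34A arrays. The deposited values are linear intensities that, per the study's methods, the authors computed with the dChip perfect-match model after invariant-set normalization. No detection calls were used here. Values below 16 were raised to 16 (122 values) and taken to log2. With R 4.3.3 and limma 3.58.1, all 20 groups were fitted together over 8740 probe sets, with Benjamini-Hochberg adjustment and a call at an adjusted p below 0.05 (31.11 degrees of freedom). Each treated group was compared with its own controls, and neonatal hearts with the 9 adult control groups. Of the probe sets 7006 carried 1 symbol, 308 several and 1426 none. The pipeline was tested on simulated data. Members and gene lists were chosen with earlier results of these data known. The pathway and target genes called on average or in neonatal hearts are all named, some of them without an effect. Other genes were picked as stated. For each member the 3 genes of highest correlation over 19 adult group means were ranked. Promoter windows came from RefSeq (GRCr8) by symbol, for 8 of 8 members. Alternatives covered the floor, quantile normalization, a filter on low probe sets, array weights, trended variance, the replicate block, model weighting and leaving out each array.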

Additional observations from a re-analysis of the deposited data

Results flagged for a closer look

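In 3 of 33 pairs of a probe set and a group of 4 arrays, a lone array stood apart from the other 3 by Dixon's criterion, which chance alone gives in about 1 in 20. For Tgfb2, replicate 3 of banding at 30 weeks read 1517 against 1382 to 1401, a gap of 0.855 of the group's range. For the brighter Fstl1 probe set, replicate 4 of infarction at 3 weeks read 7753 against 9916 to 10117 (0.925 of the range). For the dimmer Fstl1 probe set, replicate 3 of the same group read 3903 against 3446 to 3516 (0.838 of the range).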

How the results depend on the processing

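The average effect of Tsc22d1 ran from 0.40 to 0.72 over the alternatives and that of Fstl1 from 0.28 to 0.64, and both stayed past the threshold in each. With the 5 models weighted equally the limma adjusted p was 0.0222 for Tsc22d1 and 0.0284 for the brighter Fstl1 probe set. The number of member genes called for a difference between the 5 models went from 0 to 1 (Tsc22d1) without the dimmest 25% of probe sets (adjusted p = 0.0383) and with array weights (adjusted p = 0.00527), and leaving out 1 array gave 0 to 1. Sparc in neonatal hearts reversed to 0.55 with the mean of its probe sets. Of the single-gene values, 143 lost and 29 gained a call. Tgfb3 gained one on average without the hormone and vehicle arrays (0.16, adjusted p = 0.0375, dimmer probe set) and after infarction when both its probe sets were averaged (0.25, adjusted p = 0.0463), and Tgfb1 after infarction with array weights (adjusted p = 0.0491). Array weights also changed the counts on the whole array, to 170 higher and 100 lower after banding, 396 and 85 after infarction, 42 and 152 with angiotensin II and 8 and 144 with Ditpa. Leaving out 1 array moved such counts by over 1.5 times as follows. The average effect had 186 higher and 75 lower calls without vehicle replicate 1. Infarction had 61 and 5 without sham replicate 2 at 3 weeks, 69 and 17 without sham replicate 5 at 9 weeks and 260 and 33 without replicate 4 at 9 weeks. Neonatal hearts had 844 and 707 or 968 and 774 without replicate 1 or 2. The shunt had 22 and 7 without sham replicate 4 at 3 weeks, 4 and 34 without replicate 2 at 8 weeks and 8 to 14 higher with 0 to 2 lower without each of the other 3 shams. The cause was not tested. Vehicle, angiotensin II and Ditpa titles share replicate numbers, but the deviations of same-numbered arrays correlated at -0.0433 to -0.0834, so the numbers were not taken to pair them. With the replicate block the average effect called 432 probe sets in place of 455, and angiotensin II 2 in place of 0. Groups of 2 or 4 arrays limit the precision.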
